A study of Mus musculus with 18 samples.

Results

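The genes described here are 10 mouse maternal-effect genes: Nlrp5, Ooep, Tle6, Khdc3, Padi6, Zar1, Npm2, H1f8, Dppa3 and Mos. They were chosen by name, with earlier results of these data known. They were followed on arrays of cultured ovarian follicles given anti-Müllerian hormone (AMH), a product of granulosa cells that restrains follicle growth. A gene was taken as measured where the array annotation gave its symbol alone to a probe set. This held for 9 of the 10 genes, each with 1 probe set, among 18193 genes with such a probe set in all. Npm2, the oocyte histone chaperone nucleoplasmin, had no probe set of its own and was not analysed here. All 9 measured genes were among the 22518 probe sets tested.

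The follicles were preantral to small antral ones dissected from ovaries of female C57BL/6Ntac mice aged 6 to 8 weeks. Follicles of 7 mice were pooled for each experiment and divided over drop cultures with 0 (vehicle), 50 or 200 ng/mL recombinant AMH. Every culture, vehicle included, also held 80 IU/L FSH and 10 IU/L LH. Cultures ran for 12 or 24 h with 3 pools per time, which gave 18 arrays in 6 groups of 3. AMH 50 and AMH 200 stand for these doses below. Each array therefore holds RNA of whole follicles, so an oocyte transcript is measured among those of granulosa, theca and any attached stromal cells.

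Maternal-effect genes are transcribed while the oocyte grows, and their products are stored for the egg and the early embryo, which depends on them before its own genome is active. Nlrp5, Ooep, Tle6 and Khdc3 encode subunits of the subcortical maternal complex, a protein assembly under the oocyte membrane, and Padi6 encodes a protein of the same region that is needed for the fibrous lattices of the egg cytoplasm. Zar1 binds and stores maternal mRNAs, H1f8 is the linker histone of the oocyte, Dppa3 protects maternal DNA methylation after fertilisation, and Mos is a kinase that holds the mature egg in metaphase.

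Promoter sequences were available for 7 of the 10 genes, in 9 windows that end at a RefSeq transcript start. The windows of H1f8, Nlrp5, Ooep and Padi6 are shown because each precedes the outermost start of its gene, and these genes varied together across the arrays (below). They hold the 250 bases before the start, 5′ to 3′ on the strand of the gene, from RefSeq on GRCm38.p6. The capitals mark CANNTG, the E-box pattern bound by factors such as the oocyte protein FIGLA, and TAATTG or TAATTA, patterns reported for the oocyte homeobox protein NOBOX. Both strands were searched, so that CAATTA is TAATTG read on the opposite strand. The patterns did not overlap in these windows. The windows lie at chr6:115944681-115944930 (plus strand), chr7:23385639-23385888 (plus strand), chr9:78378589-78378838 (minus strand) and chr4:140742644-140742893 (minus strand).
H1f8: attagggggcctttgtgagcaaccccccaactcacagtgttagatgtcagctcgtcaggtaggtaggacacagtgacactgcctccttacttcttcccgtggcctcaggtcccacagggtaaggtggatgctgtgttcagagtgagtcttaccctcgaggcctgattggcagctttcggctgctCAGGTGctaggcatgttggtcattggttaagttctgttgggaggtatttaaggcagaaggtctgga
Nlrp5: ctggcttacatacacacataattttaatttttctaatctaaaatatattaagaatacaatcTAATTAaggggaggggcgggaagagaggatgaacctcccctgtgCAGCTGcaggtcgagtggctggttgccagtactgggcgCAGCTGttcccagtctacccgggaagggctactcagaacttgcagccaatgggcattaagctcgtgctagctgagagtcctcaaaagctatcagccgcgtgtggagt
Ooep: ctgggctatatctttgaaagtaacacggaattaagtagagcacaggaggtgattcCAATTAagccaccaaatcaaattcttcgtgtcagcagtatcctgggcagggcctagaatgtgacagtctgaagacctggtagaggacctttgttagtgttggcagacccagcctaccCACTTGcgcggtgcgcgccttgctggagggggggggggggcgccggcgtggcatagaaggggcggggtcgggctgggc
Padi6: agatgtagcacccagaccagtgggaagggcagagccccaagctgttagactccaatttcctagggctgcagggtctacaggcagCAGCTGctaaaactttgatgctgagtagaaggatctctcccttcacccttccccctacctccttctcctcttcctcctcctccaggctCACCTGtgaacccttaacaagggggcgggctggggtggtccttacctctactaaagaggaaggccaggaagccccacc

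H1f8 held 1 CANNTG match, CAGGTG, 66 bases before its start. Nlrp5 held CAGCTG at 107 and 145 bases and TAATTA at 189 bases before the start. Ooep held CACTTG at 78 bases and CAATTA at 195 bases, and Padi6 held CACCTG at 78 bases and CAGCTG at 166 bases. All 9 windows of the 7 genes held CANNTG, which was also found in 66.2% of the 32851 mouse windows of this length. TAATTG or TAATTA was found in 2 of the 9 windows, those of Nlrp5 and Ooep shown here, against 11.3% of all windows. A match describes letters and is not a measured binding site.

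Signal is the MAS5 intensity of a probe set, in the arbitrary units deposited, with a 2% trimmed mean of 150 on every array. The median signal of an array was 18.1 to 36.6 on the 17 arrays used in the fits, and a probe set near that level is dim. AMH 50 at 12 h, replicate 3, was set apart. It correlated with the other arrays at a median of 0.492, against 0.850 to 0.962 for the 17 others, and its hybridisation controls averaged 32128, against 1582 to 3879. AMH 200 at 12 h, replicate 3, came from the same pool and had poly-A control signals of 4327, against 322 to 1264 on the 16 remaining arrays. Levels are compared only within a probe set.

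The 9 genes varied more between pools than between doses of a pool. Nlrp5 read 524, 1180 and 31.7 on the vehicle arrays of 12 h (replicates 1, 2 and 3) and 119, 826 and 430 on those of 24 h. The highest of these values was 25.1 times the lowest on the scale of signal + 16. In all 9 genes the highest vehicle array was replicate 2 of 12 h, in 8 of 9 the next was replicate 2 of 24 h, and in 7 of 9 the lowest was replicate 3 of 12 h. The same ratio of highest to lowest vehicle array was 23.5 for Zar1, 18.1 for Padi6, 12.9 for Mos, 10.6 for H1f8, 8.47 for Dppa3, 7.52 for Ooep, 5.46 for Tle6 and 2.83 for Khdc3. The SD over the 6 vehicle arrays, on the log2 scale, was 0.66 (Khdc3) to 1.87 (Padi6), with a median of 1.29, while the median probe set tested had an SD of 0.29. Whether a pool held fewer oocytes or its oocytes held less of these RNAs cannot be told apart in whole follicles, here and in every result below.

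**Figure D1:**
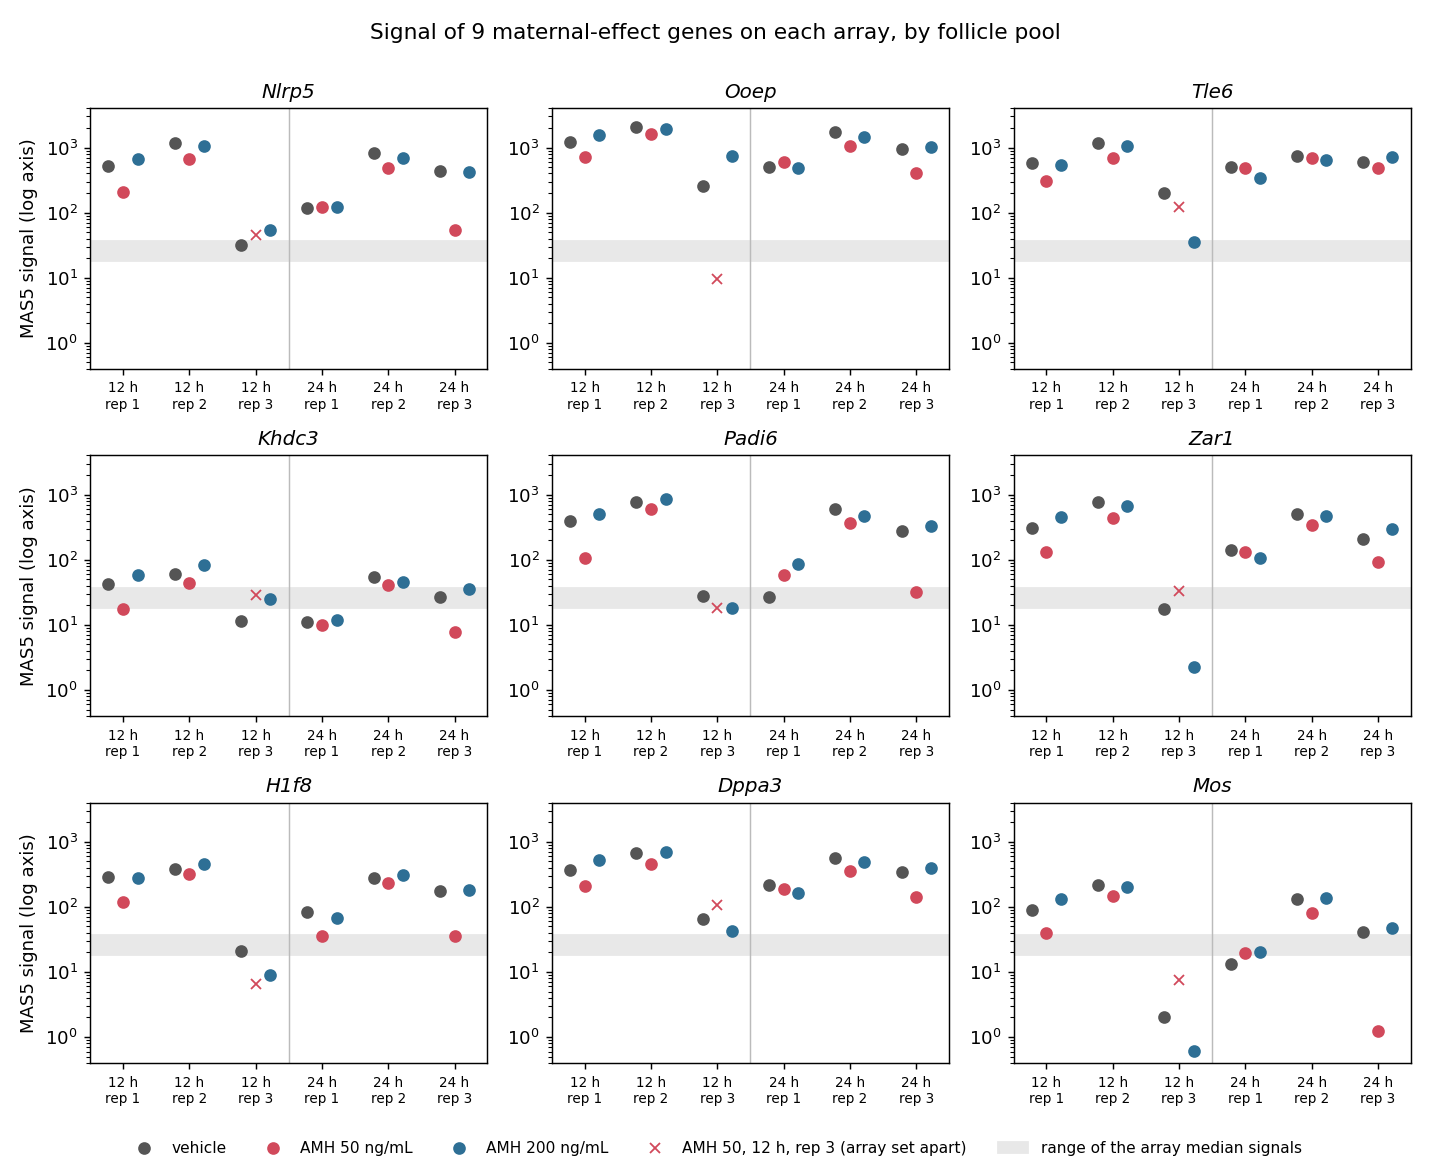
Signal of the 9 measured maternal-effect genes (log axis, arbitrary units) on each of the 18 arrays, grouped by follicle pool, with vehicle, AMH 50 and AMH 200 side by side and the array set apart drawn as a cross. The grey band spans the median signals of the arrays, 18.1 to 36.6; replicate 2 of 12 h has the highest vehicle array in 9 of 9 genes, and replicate 3 of 12 h the lowest in 7 of 9.

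The subcortical maternal complex is taken first. Nlrp5 (probe set 1418882_at) encodes its founding subunit, a NOD-like receptor family protein also known as MATER. At 24 h the AMH 50 arrays read 122, 482 and 53.9 in replicates 1, 2 and 3, and the AMH 200 arrays 122, 683 and 428. Against the vehicle arrays given above, replicate 1 was level at all doses, and AMH 50 was the lowest array of replicates 2 and 3. At 12 h AMH 50 read 209 and 664 in replicates 1 and 2, and AMH 200 read 678, 1049 and 54.1 in replicates 1 to 3. AMH 50 was thus the lowest array of both pools that have it, and the groups overlapped because the pools lie so far apart.

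Ooep (1460471_at) encodes a subunit with a domain of the RNA-binding KH type. Its vehicle signals at 24 h were 502, 1711 and 943, with AMH 50 at 606, 1059 and 402 and AMH 200 at 489, 1464 and 1020. AMH 50 was the highest array in replicate 1 and the lowest in replicates 2 and 3. At 12 h the vehicle arrays gave 1205, 2058 and 260, AMH 50 gave 716 and 1606, and AMH 200 gave 1547, 1926 and 754. In replicate 3 of 12 h Ooep was higher with AMH 200 than in vehicle by 1.48 on the log2 scale, the largest such rise there among the 9 maternal-effect genes.

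Tle6 (1448727_at), a corepressor-family protein of the complex, followed the others least. At 24 h vehicle arrays read 494, 731 and 594, AMH 50 arrays 481, 700 and 482, and AMH 200 arrays 340, 646 and 713. AMH 50 was below vehicle in each pool, but by no more than 0.29 on the log2 scale, and AMH 200 was the lowest array of replicates 1 and 2. The 12 h signals were 577, 1182 and 203 in vehicle, 302 and 697 with AMH 50, and 541, 1074 and 35.3 with AMH 200. Tle6 on the AMH 200 array of replicate 3, at 12 h, differed from vehicle by -2.09.

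Khdc3 (1429377_at), the KH-domain subunit also called FILIA, was dim and lay at or below the median of its array on 7 of 17 arrays. It read 11.2, 53.4 and 27.1 in vehicle at 24 h, 9.79, 40.9 and 7.88 with AMH 50, and 11.7, 46.2 and 35.0 with AMH 200. Its 12 h values were 42.4, 61.0 and 11.4 in vehicle, 17.7 and 44.3 with AMH 50, and 58.5, 84.4 and 25.0 with AMH 200. AMH 50 was the lowest array in each of the 5 pools, by 0.08 to 0.85 on the log2 scale relative to vehicle.

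Padi6 (1437084_at), of the peptidylarginine deiminase family, had the highest SD over the vehicle arrays (above). At 24 h it read 26.9, 599 and 273 in vehicle, 58.5, 368 and 32.1 with AMH 50, and 85.9, 473 and 331 with AMH 200. In replicate 1 AMH 50 was above vehicle by 0.79, opposite to the other replicates, from a vehicle signal within the range of the array medians. AMH 200 differed from vehicle by 1.25, -0.33 and 0.26 in replicates 1 to 3. Padi6 at 12 h read 395, 760 and 27.6 in vehicle, 106 and 594 with AMH 50, and 510, 871 and 18.2 with AMH 200. The difference of AMH 50 from vehicle ran from -2.59 (replicate 3, 24 h) to 0.79 over the 5 pools.

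Zar1 (1434494_at), the mRNA-binding zinc-finger protein, read 140, 507 and 211 in vehicle at 24 h, 133, 339 and 90.9 with AMH 50, and 108, 473 and 298 with AMH 200. At 12 h its signals were 308, 768 and 17.4 in vehicle, 130 and 437 with AMH 50, and 449, 662 and 2.25 with AMH 200. AMH 50 was below vehicle in all 5 pools, by 0.06 to 1.15. With AMH 200 it was above vehicle in replicate 1 of 12 h and replicate 3 of 24 h and below it in the other pools.

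The chromatin genes came next. H1f8 (1416518_at) at 24 h read 82.8, 277 and 173 in vehicle, 36.1, 231 and 35.9 with AMH 50, and 66.8, 313 and 181 with AMH 200. AMH 50 gave the lowest array of each pool at 24 h. Its 12 h signals were 290, 375 and 20.9 in vehicle, 120 and 321 with AMH 50, and 279, 455 and 8.98 with AMH 200. Dppa3 (1424295_at) at 24 h read 213, 562 and 339 in vehicle, 187, 350 and 141 with AMH 50, and 166, 489 and 393 with AMH 200. AMH 50 was below vehicle in each 24 h pool for Dppa3, by 0.18, 0.66 and 1.18, although AMH 200 was lower still in replicate 1. Dppa3 at 12 h read 371, 669 and 64.9 in vehicle, 208 and 457 with AMH 50, and 522, 691 and 43.2 with AMH 200. In both genes AMH 50 was the lowest array of replicates 1 and 2 of 12 h.

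Mos (1450775_at), the kinase of meiotic arrest, was at or below the array median on 6 of 17 arrays. It read 13.2, 130 and 41.2 in vehicle at 24 h, 19.8, 80.4 and 1.26 with AMH 50, and 20.6, 138 and 48.1 with AMH 200. At 12 h Mos read 90.9, 216 and 2.00 in vehicle, 40.3 and 147 with AMH 50, and 132, 200 and 0.604 with AMH 200. AMH 50 was below vehicle in 4 of 5 pools, and the exception, replicate 1 of 24 h, was dim at each dose.

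The array set apart gave other values. On it Nlrp5 read 45.1, Ooep 9.71, Tle6 123, Khdc3 28.6, Padi6 18.1, Zar1 32.6, H1f8 6.57, Dppa3 108 and Mos 7.63. Its differences from the vehicle array of its pool ran from -3.42 (Ooep) to 0.71 (Khdc3), with a median of 0.36, and 4 of 9 genes were lower. Over all probe sets tested the median difference of this array was -0.70 and the SD 1.95, against an SD of 0.30 to 0.40 for AMH 50 in the 5 other pools, so no dose difference was read from it.

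The first question the design puts is whether AMH 50 differed from vehicle after 24 h. The 9 genes were lower on average with AMH 50, by 0.13 (Tle6) to 1.13 (Nlrp5) on the log2 scale, but none passed the test. Their median difference was -0.67, while the median over all probe sets tested was -0.0054. The pools were unequal: the median of the 9 genes was -0.04 in replicate 1, -0.59 in replicate 2 and -1.20 in replicate 3. In these pools 5, 9 and 9 of the 9 genes were lower, against 58, 42.7 and 51.9% of probe sets tested. Without replicate 3 the median of the estimates was -0.21.

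The estimates come from limma, on log2(signal + 16) with the pool as a block, with Benjamini-Hochberg adjustment across the 22518 probe sets. A difference on this scale understates the change of dim probe sets. Nlrp5 differed by -1.13 (SE 0.41, n = 3 pools) and H1f8 by -1.01 (SE 0.30). The other subunits of the complex differed by -0.54 (Ooep, SE 0.31), -0.41 (Khdc3, SE 0.22) and -0.13 (Tle6, SE 0.31). Padi6 differed by -0.82 (SE 0.51), Zar1 by -0.57 (SE 0.31), Dppa3 by -0.67 (SE 0.25) and Mos by -0.68 (SE 0.33). No probe set passed an adjusted p of 0.05 in this limma comparison (0%), 605 had an unadjusted p under 0.05, of which 3 were maternal-effect genes, and the adjusted p of each of the 9 was 1.

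This call turned on how arrays were weighted. When limma estimated a quality weight per array, 1025 probe sets passed, and 8 of the 9 genes did, at differences of -0.75 (Khdc3) to -2.16 (Nlrp5) and adjusted p of 0.00188 to 0.0218; Tle6 did not (-0.39, adjusted p = 0.160). The AMH 50 array of replicate 3 at 24 h then carried a weight of 26.3, against 0.141 to 4.41 for the other 16 arrays, and the weight estimation stopped before it converged. Its pool also had the median difference farthest from 0.

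**Figure D2:**
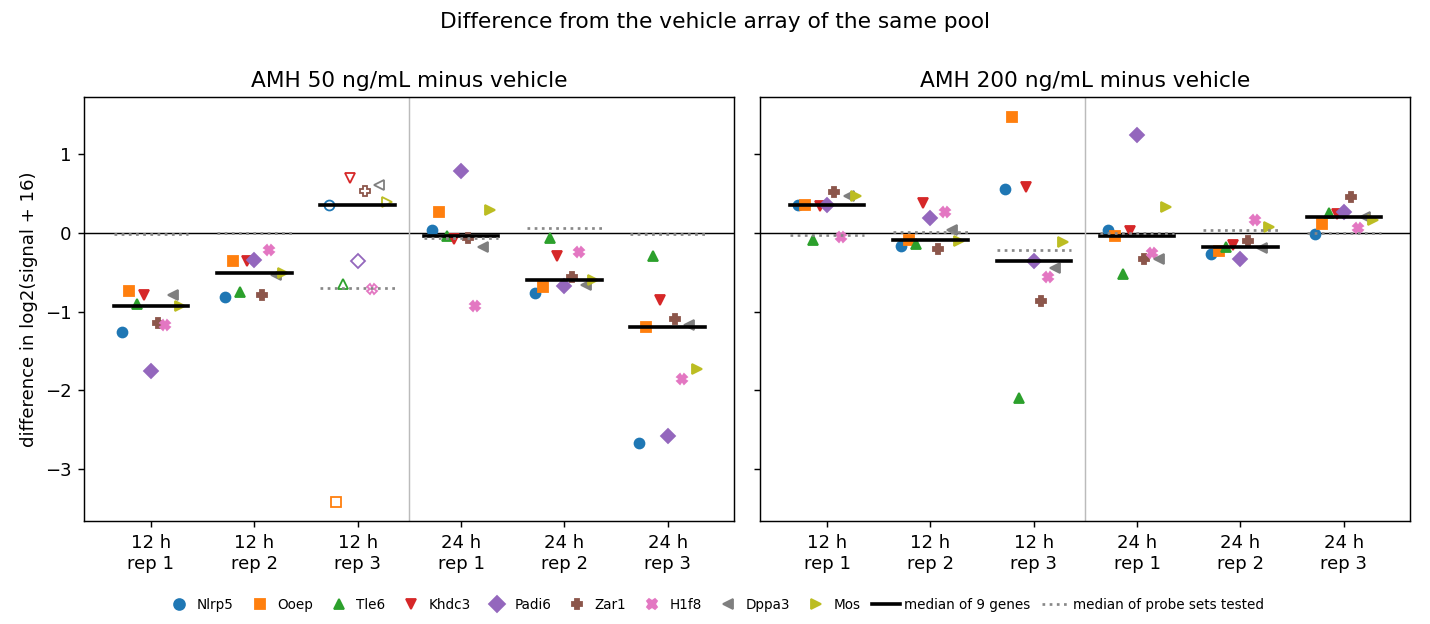
Difference in log2(signal + 16) of each maternal-effect gene from the vehicle array of its own pool, for AMH 50 and AMH 200, with the median of the 9 genes as a solid bar, the median of all probe sets tested as a dotted bar, and the array set apart as open symbols. With AMH 50 the gene medians are -0.93, -0.51, -0.04, -0.59 and -1.20 in the 5 usable pools, while with AMH 200 they lie between -0.35 and 0.36.

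Signs were counted as a description. At 24 h AMH 50 was below vehicle in 3 of 3 pools for 5 of 9 genes (Dppa3, H1f8, Khdc3, Tle6 and Zar1), against 12.2% of probe sets tested. At 12 h it was below vehicle in both usable pools for 9 of 9, against 28.6%. Over these 5 pools it was lower throughout for the same 5 genes as at 24 h, against 4.61% of probe sets. The genes share their arrays and pools, so that they do not count as separate observations.

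AMH 50 after 12 h rests on 2 pools. The gene median was -0.93 in replicate 1, with a range of -1.76 (Padi6) to -0.74 (Ooep), and -0.51 in replicate 2, with a range of -0.81 (Nlrp5) to -0.21 (H1f8). In limma the differences were -1.16 (Padi6, SE 0.59), -1.15 (Tle6, SE 0.36), -1.14 (Zar1, SE 0.36), -0.96 (Nlrp5, SE 0.48), -0.80 (H1f8, SE 0.35), -0.78 (Dppa3, SE 0.29), -0.77 (Mos, SE 0.39), -0.54 (Khdc3, SE 0.25) and -0.32 (Ooep, SE 0.36), with a median of -0.80. These are not plain means of the 2 pools, because vehicle and AMH 200 of replicate 3 also enter the blocked fit. Without that pool Tle6 differed by -0.82, Zar1 by -0.97 and Ooep by -0.55, and the median was -0.72.

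None of the 9 genes passed at 12 h (smallest adjusted p = 0.867 in limma), nor did any probe set (0%, with 1282 at an unadjusted p under 0.05, of which 4 were these genes). The median was -0.51 without replicate 1 and -1.22 without replicate 2. When the pool was left out of the fit the median turned to 0.30, since vehicle then kept the low arrays of replicate 3 and AMH 50 did not.

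With both times in 1 limma contrast (AMH 50 against vehicle, 5 pools), the differences were -1.05 (Nlrp5, SE 0.32), -0.99 (Padi6, SE 0.39), -0.91 (H1f8, SE 0.23), -0.85 (Zar1, SE 0.24), -0.73 (Dppa3, SE 0.19), -0.72 (Mos, SE 0.25), -0.64 (Tle6, SE 0.24), -0.47 (Khdc3, SE 0.17) and -0.43 (Ooep, SE 0.24). Of the 9 genes, 8 had an unadjusted p under 0.05, all but Ooep, as did 1061 of all probe sets (4.71%). The genes were chosen with earlier results of these data known and share arrays and pools, so this count is a description only. None of the 9 passed after adjustment, with a smallest adjusted p of 0.397 (H1f8), and 0% of all probe sets did. With array weights 235 probe sets passed, and 8 of the 9 genes, all but Padi6 (adjusted p = 0.0955). The AMH 50 difference at 24 h minus that at 12 h had a median of 0.11 over the 9 genes, with 0 probe sets passing in limma (0%, and 729 at an unadjusted p under 0.05), so the times were not shown to differ.

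AMH 200 gave no such shift of the group. Against vehicle at 24 h the differences of the 9 genes ran from -0.15 (Tle6) to 0.39 (Padi6), with a median of -0.0088, and 5 were lower and 4 higher. The pool medians were -0.04, -0.18 and 0.20. None of the 9 genes was below vehicle in all 3 pools of 24 h, against 11.9% of probe sets. For so few genes this count is close to that share, so it is a description only. In limma 0 probe sets passed (0%, with 379 at an unadjusted p under 0.05, none of them these genes). With array weights 8 probe sets passed.

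At 12 h the AMH 200 medians of the pools were 0.36, -0.09 and -0.35, and the limma median was 0.07, from -0.77 (Tle6) to 0.58 (Ooep). No probe set passed (0%), 2563 had an unadjusted p under 0.05, and Tle6 was the 1 maternal-effect gene among them (adjusted p = 0.432). Both genes were farthest from vehicle in replicate 3, whose AMH 200 array had the raised control signals. Over both times the median was 0.08 and the smallest adjusted p of the 9 genes 0.951, with 0 probe sets passing (0%, 764 at an unadjusted p under 0.05). The change of the AMH 200 difference from 12 to 24 h had a median of 0.11, again with 0 calls (0%, 1618 at an unadjusted p under 0.05).

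The doses were then set against each other. At 24 h AMH 200 exceeded AMH 50 by 1.22 for Padi6 (SE 0.51), 1.05 for Nlrp5 (SE 0.41), 1.00 for H1f8 (SE 0.30), 0.87 for Mos (SE 0.33), 0.58 for Zar1 (SE 0.31), 0.56 for Dppa3 (SE 0.25), 0.49 for Ooep (SE 0.31) and 0.44 for Khdc3 (SE 0.22), and Tle6 differed by -0.02 (SE 0.31). The median of the 9 was 0.58, against 0.02 over all probe sets, and it was 0.15 without replicate 3 and 1.01 without replicate 1. AMH 200 was above AMH 50 in all 3 pools for 5 genes (H1f8, Khdc3, Mos, Nlrp5 and Padi6), against 17.4% of probe sets. This comparison shares its AMH 50 arrays with the one against vehicle, so it repeats their values.

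None of the 9 passed in limma (adjusted p = 0.999 each), and 0 probe sets did (0%), with 936 at an unadjusted p under 0.05, of which 5 were these genes. Weighting the arrays raised this to 513 probe sets and 8 of the 9 genes, all but Tle6. At 12 h AMH 200 was above AMH 50 in both usable pools for 9 of 9 genes (24.6% of probe sets), with a limma median of 0.90 and 0 calls (0%, 1264 at an unadjusted p under 0.05, 6 of them these genes). That median was 0.42 without replicate 1. Over the 5 pools AMH 200 was above AMH 50 throughout for 5 of 9 genes, the same as at 24 h, against 5.46% of probe sets. AMH 50 was the lowest array of its pool for 9 of 9 genes in replicates 1 and 2 of 12 h and in replicate 3 of 24 h, for 8 in replicate 2 of 24 h, and for 2 in replicate 1 of 24 h. The share of all probe sets with AMH 50 lowest was not counted, so these ranks only describe the 9 genes.

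**Figure D3:**
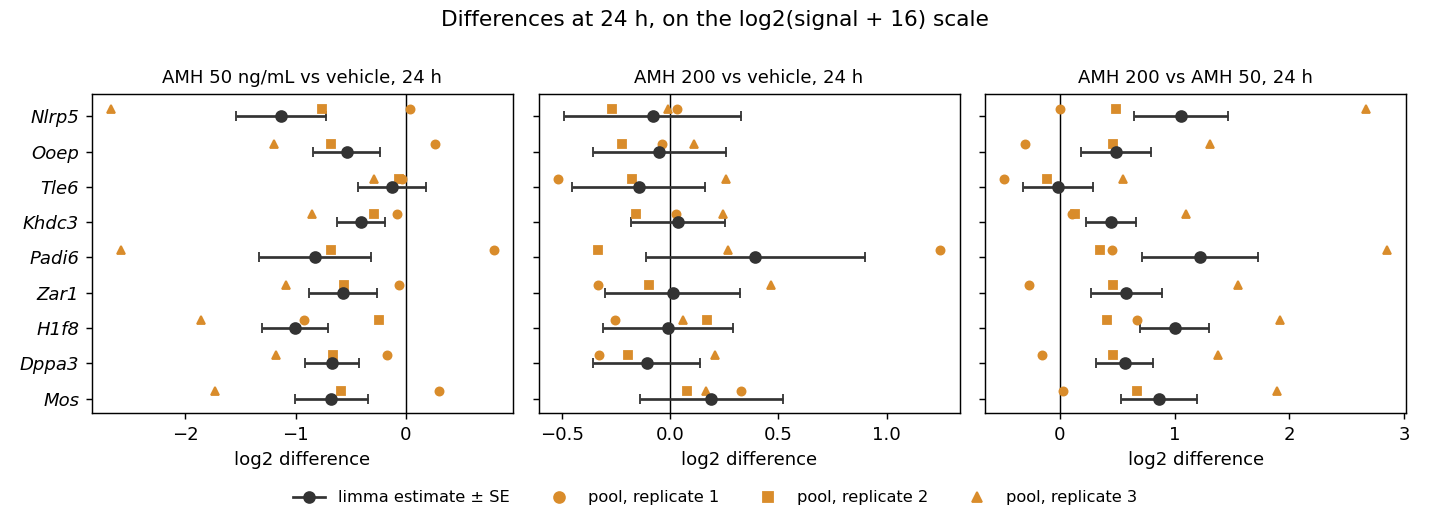
Limma estimates (points, with SE bars) of the 9 genes at 24 h for AMH 50 against vehicle, AMH 200 against vehicle and AMH 200 against AMH 50, on the log2(signal + 16) scale, with the value of each of the 3 pools above them. The axes differ between panels; replicate 3 lies farthest from 0 in the first and last panels for Nlrp5 (-2.67 and 2.67) and Padi6 (-2.59 and 2.85).

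Time in culture without AMH was compared over the 6 vehicle arrays. None of the 9 genes differed between 24 and 12 h in limma (smallest adjusted p = 0.826), while 291 probe sets did (1.29%, 197 higher and 94 lower at 24 h, and 4187 at an unadjusted p under 0.05). The median of the 9 genes was 0.10, and it moved between -0.93 without replicate 3 of 12 h and 0.73 without replicate 2 of 12 h. No pool was common to both times, so that this comparison carries the full spread between pools.

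The 9 genes varied together from array to array. Over the 17 arrays their 36 pairwise correlations were 0.50 to 0.99 (median 0.92), and 0.57 to 0.98 (median 0.90) once each pool was centred and replicate 3 of 12 h left out. With that pool kept, the centred correlations spanned -0.15 to 0.97 (median 0.83). Tle6 was the least alike, at 0.79 with the mean of the others, or 0.40 after centring and 0.71 after centring without replicate 3 of 12 h. The arrays share pools, so the correlations only describe them.

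The genes outside the group whose pool-centred signals were most like the mean of the 9, among 11204 genes and over 17 arrays, were Astl (r = 0.99), Fbxw21, Arhgap20os, Ccno, Klf17, Kpna7, Nlrp4b, Miox, Cpsf4l and Zp1 (r = 0.95). Astl encodes ovastacin, the egg protease that cleaves the zona pellucida protein ZP2, and Zp1 encodes a zona protein itself. At 24 h these 10 genes differed between AMH 50 and vehicle by -0.49 (Kpna7) to -1.03 (Astl), and between AMH 200 and vehicle by -0.03 (Miox) to 0.19 (Klf17), and none passed the test. They were chosen for following the 9 genes within pools, which fixes the direction of these differences, so the values are a description only.

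Other oocyte transcripts give a scale for these differences. Zp1, Zp2 and Zp3, which encode the coat of the oocyte, differed from vehicle with AMH 50 by a mean of -1.32 and -0.69 in the 2 usable pools of 12 h and of -0.44, -0.78 and -2.72 in those of 24 h. The mean of the 9 maternal-effect genes differed by -1.05, -0.52, 0.01, -0.50 and -1.50 in the same pools, so that it was below vehicle in 4 of 5. Its difference was higher than that of the zona genes in each pool, by 0.27, 0.17, 0.46, 0.27 and 1.23 (mean 0.48, SD 0.43). With AMH 200 the same gap averaged -0.02 (SD 0.12, 6 pools). On the arrays, high zona signal went with high maternal-effect signal, and the zona genes spanned the wider range. Over the 17 arrays each of the 9 genes had a slope under 1 on the zona mean, from 0.34 (Khdc3) to 0.96 (Padi6). With such slopes a shared fall gives a gap above 0, so the gap is a description only.

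**Figure D4:**
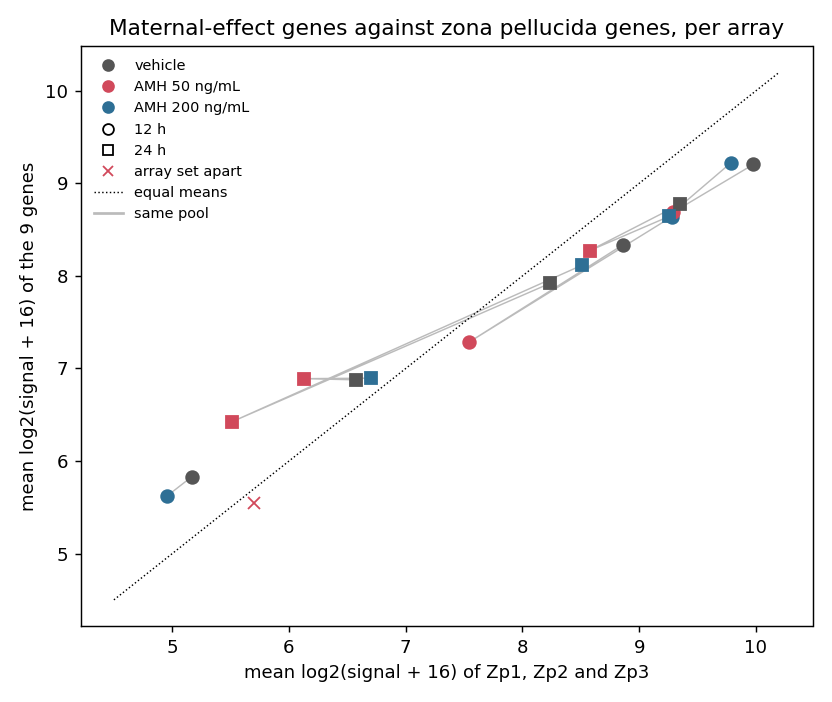
Mean log2(signal + 16) of the 9 maternal-effect genes against that of Zp1, Zp2 and Zp3 on each array, coloured by dose, with grey lines joining arrays of a pool and a dotted line at equal means. The arrays lie along 1 band that is flatter than the dotted line; the AMH 50 array of replicate 3 at 24 h has a zona mean of 5.51, against 8.23 for its vehicle array.

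Wider gene lists, written from general knowledge, were counted in the 24 h comparison of AMH 50 with vehicle, where none of their members passed the test. Of 31 other maternal-effect genes tested, 26 were lower (median -0.15), led by Nlrp14 (-1.60, SE 0.44), a relative of Nlrp5. Among them were Btg4 (-0.84, SE 0.18), an adaptor for maternal mRNA decay, and the adhesion gene Cdh1 (-0.88, SE 0.30). Btg4 is also on the list of mRNA storage and translation. Cdh1 was lower with AMH 200 at 24 h too (-0.57, SE 0.30). At 12 h Cdh1 was higher with AMH 50 (0.32, SE 0.35) and with AMH 200 (0.41, SE 0.30). All 8 zona and oocyte-secreted genes tested were lower (median -1.01). Of 9 oocyte transcription factors measured, only 4 were among the probe sets tested. These 4 were lower (median -0.56), among them Nobox at -0.93 (SE 0.31) and Lhx8 at -0.91 (SE 0.25). By pool, 3 of the 4 were lower in each of replicates 1 to 3.

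Of the 12 genes of mRNA storage and translation, 10 were lower (median -0.27), with Cpeb1, which controls polyadenylation of stored mRNAs, at -0.79 (SE 0.28). Of the 19 meiotic arrest and resumption genes, 15 were lower (median -0.27), with the oocyte kinase gene Wee2 at -0.90 (SE 0.25). With AMH 200 the medians of these 5 lists lay between -0.09 and 0.02. The median over all probe sets was -0.0054 with AMH 50 and 0.01 with AMH 200.

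Markers of other cells are given beside this result. All 10 leukocyte markers tested and all 12 surface epithelium markers were lower in limma at 24 h, with medians of -0.79 and -0.72 with AMH 50 and of -0.95 and -0.65 with AMH 200, none past the test. By pool, 10, 9 and 10 leukocyte markers were lower with AMH 50 in replicates 1 to 3, and 10, 6 and 10 with AMH 200. For surface epithelium markers the counts were 9, 12 and 12 with AMH 50 and 12, 12 and 10 with AMH 200. Summed signals, here and at 12 h, cover all measured markers of a list, also those not tested. These were 14 leukocyte, 12 surface epithelium, 17 granulosa, 12 theca and interstitial and 11 endothelial markers. The summed signal on the 3 arrays of a group was 1275 to 3130 (leukocyte) and 5079 to 8943 (surface epithelium) in vehicle, 756 to 1783 and 3858 to 4675 with AMH 50, and 600 to 1583 and 3655 to 4560 with AMH 200. Of 17 granulosa markers 14 were lower with AMH 50 (median -0.19, summed signal 11801 to 17783, against 14299 to 15849 in vehicle), and 9 of 11 theca and interstitial markers were higher (median 0.21, 10742 to 18942, against 11584 to 13642). By pool the granulosa list had AMH 50 medians of -0.28, -0.25 and 0.04 in replicates 1 to 3, with 15, 12 and 8 of 17 lower. The theca list had a median of 0.78 in replicate 1, 0.09 in replicate 2 and 0.0032 in replicate 3. With AMH 200 the granulosa median was 0.14 (12 of 17 higher, 15368 to 17500) and the theca median -0.16 (9 of 11 lower, 10687 to 12371). In limma the 10 endothelial markers tested had medians of 0.07 with AMH 50 and 0.02 with AMH 200. The AMH 200 value covers pools of opposite sign. Their medians were 0.32, 0.69 and -1.02 in replicates 1 to 3, with 2, 1 and 10 of the 10 markers lower. With AMH 50 the endothelial pool medians were -0.12, 0.10 and -0.06.

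At 12 h the marker lists stood otherwise, again with no marker past the test. In the limma estimates all 12 surface epithelium markers were higher, with a median of 0.44 with AMH 50 and 0.60 with AMH 200. By pool, 4 of 12 were lower with AMH 50 in replicate 1 and 4 of 12 in replicate 2 (medians 0.18 and 0.23). With AMH 200 the pool medians were 0.41, -0.26 and 1.77 in replicates 1 to 3, and 9 of 12 were lower in replicate 2. With AMH 50, 8 of 11 theca and interstitial markers (median -0.30), 8 of 10 leukocyte markers (-0.31), 7 of 10 endothelial markers (-0.46) and 11 of 17 granulosa markers (-0.11) were lower in limma. These estimates also draw on vehicle and AMH 200 of replicate 3. In replicates 1 and 2 themselves the AMH 50 medians were -0.39 and -0.0034 (theca), -0.47 and 0.16 (leukocyte), -0.29 and 0.23 (endothelial), and -0.03 and -0.04 (granulosa). Of the endothelial markers, 7 of 10 and 2 of 10 were lower there. With AMH 200 the medians of these 4 lists were 0.04, 0.06, -0.49 and -0.27 in limma. The endothelial pool medians were then -0.46, 0.80 and -1.89 in replicates 1 to 3. Summed signal in vehicle and with AMH 50 was 6183 to 14993 and 6906 to 7585 for theca, 1600 to 2332 and 1118 to 1868 for leukocyte, 1545 to 5782 and 1592 to 1976 for endothelial, 6788 to 10761 and 9626 to 9849 for granulosa, and 4343 to 7070 and 4585 to 7688 for surface epithelium markers. No marker of any list was at 0 on any array. That does not show that each cell type was present, since single signals fell below the array medians. The lowest with AMH 200 at 12 h was 0.947 for theca and 1.3 for leukocyte markers. The part of these cells in the result for the maternal-effect genes was not tested.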

How the data were processed

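RNA of each culture (5 ng) was amplified, labelled with biotin and hybridised to 1 Affymetrix Mouse Genome 430 2.0 array. The deposited intensity values are on a linear scale and were computed by the authors with MAS5, per the submitters' processing notes, which give no version; probe-level files were not used here. Of 45101 probe sets, 64 were controls. The platform annotation gave 1 symbol to 34945 of the others, several to 932 and none to 9160. Replicates are separate pools of mice. For the AMH samples of 12 h, the description states 24 h but title and source state 12 h, and the latter was taken.

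Values were not normalized again. After adding 16, log2 was taken, and the probe sets whose mean log2 lay above the 50th percentile (22518) entered limma 3.58.1 (R 4.3.3, lmFit, then eBayes with trend) on 17 arrays, with 7 residual degrees of freedom and the threshold at an adjusted p of 0.05 (two-sided). The pool was a block in dose comparisons, because the protocol divides each pool over the doses. Vehicle arrays were compared between times without a block. The fits were tested on simulated data. Plots used matplotlib 3.10.9 (python 3.11.15).

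Named genes were all members, the 10 genes most like their mean, and up to 3 genes of each list with the largest difference for AMH 50 at 24 h; not all are printed. Members and lists were chosen with earlier results of these data known. Alternatives changed the pseudocount, normalization, filter, variance trend, block, array weights and arrays in the fit. The number of arrays limits the precision.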

Additional observations from a re-analysis of the deposited data

How the results depend on the processing

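Dim signal limits Khdc3 and Mos, at or below the array median on 7 and 6 of 17 arrays. Array weights gave 1025 (AMH 50), 8 (AMH 200) and 513 (AMH 200 against AMH 50) probe sets at 24 h, 235 for AMH 50 over both times and 767 for the vehicle time comparison, against 0, 0, 0, 0 and 291. They also moved the median of the 9 genes for the AMH 200 difference between times to -0.32 and turned Tle6 in AMH 200 against AMH 50 at 24 h to 0.16. Fitting the 24 h arrays alone called 1 probe set for AMH 50, and no variance trend called 1 for AMH 50 over both times. The vehicle time comparison called 154 with a pseudocount of 1, 60 with no filter, 128 above the 75th percentile and 619 with the pool as a random block.

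The pools pair the arrays by design. Without the replicate block, medians of the 9 genes moved to 0.30 (AMH 50, 12 h), -0.20 (AMH 200 against AMH 50, 12 h), -0.22 (AMH 50, both times) and -0.91 (AMH 50, 24 h minus 12 h), and at 12 h the AMH 50 difference turned to 0.32 for Nlrp5, 0.30 for Ooep, 0.18 for Padi6, 0.34 for Zar1, 0.39 for H1f8, 0.23 for Dppa3 and 0.33 for Mos. By construction, AMH 50 then lacks the pool with the lowest oocyte signal, which vehicle keeps. No call of the 9 genes changed.

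With each pool left out in turn, calls ranged from 0 to 4 (AMH 50, 12 h), 0 to 242 (AMH 200, 12 h), 0 to 17 (AMH 200 against AMH 50, 12 h), 0 to 1 (AMH 50, both times), 0 to 2 (AMH 200, both times) and 0 to 3 (AMH 50, 24 h minus 12 h). All these highest counts came without replicate 2 of 12 h, and the 1 call also without replicate 1 of 12 h. The vehicle time comparison ranged from 0 (without 24 h replicate 2 or 3) to 531 (without 12 h replicate 3). The 12 h medians ranged from -1.22 to -0.51 (AMH 50) and 0.42 to 1.25 (AMH 200 against AMH 50). Single genes ranged from -0.55 to 0.039 (Ooep, AMH 50, 12 h, above 0 without replicate 1), -1.63 to 0.057 (Padi6, AMH 50, 24 h, above 0 without replicate 3) and -0.30 to 0.22 (Tle6, AMH 200 against AMH 50, 24 h, above 0 without replicate 1 or 2). None of the 9 genes passed the threshold with a pool left out. The causes of the shifts other than the block were not tested.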
